A study of Mus musculus with 67 samples.

Results

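CD4+ T cells from mice with experimental autoimmune encephalomyelitis (EAE) were stimulated through the T cell receptor for 18 h and compared with EAE T cells that had not been stimulated. The comparison used 6 of the 60 libraries of the series, namely the 3 labelled T cells-EAE+anti-CD3+CtrlIg and the 3 labelled T cells-EAE. They were chosen by their labels alone, and no measured value entered the choice. The mice were adult C57BL/6 animals with no engineered allele, immunized to induce EAE, in which T cells specific for myelin attack the brain and spinal cord. CD4+ T cells were enriched by negative selection from spleen and from inguinal and brachial lymph nodes, not from the brain or spinal cord. The stimulated cells received latex microspheres carrying the anti-CD3 antibody 2C11 together with control immunoglobulin (CtrlIg), and no interferon beta (IFNb). The sources do not say whether the unstimulated cells were also kept in culture for that time. The series as a whole asked how antibodies to the inhibitory receptor Btla change this response. Its other EAE T cell arms (anti-CD3+CtrlIg+IFNb, anti-CD3+anti-Btla, anti-CD3+anti-Btla+IFNb) were fitted jointly with the 6 libraries. They thus entered the choice of genes tested, the scaling, the replicate block and the estimate of the spread between libraries. Some of them also served in a comparison within a single sequencing lane, and all of them are shown beside the retained-intron shares. For comparison, the same contrast was taken from T cells of naive mice (3 anti-CD3+CtrlIg and 3 unstimulated libraries) and from B cells of EAE mice (3 anti-IgM/G+CtrlIg and 3 unstimulated libraries).

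The T cell receptor signals through the CD3 chains to calcium and calcineurin, to protein kinase C and NF-kB, and to the MAP kinases. These pathways bring NFAT, NF-kB and AP-1 proteins to the promoters of cytokine and receptor genes. Within hours a resting T cell leaves quiescence, takes up glucose and amino acids, builds ribosomes and copies its DNA, and it silences genes that keep naive and memory cells circulating through lymph nodes. In EAE, helper T cells that make interferon gamma, IL-17 and GM-CSF are the main disease-causing population.

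The anti-CD3 libraries held 9.31 to 10.13 M estimated counts and the unstimulated libraries 7.54, 8.33 and 28.95 M, the last being the sum of 2 runs. The lane numbers in the deposited file names differed between the groups. All 3 anti-CD3 libraries came from lane 1, unstimulated replicates 1 and 2 came from lane 2, and replicate 3 came from lanes 4 and 5, so lane and stimulation cannot be told apart within the 6 libraries. Markers of CD4+ T cells summed to 4127 to 4291 CPM (counts scaled to a common library total, without further normalisation) in anti-CD3 libraries and 2684 to 3095 CPM in unstimulated libraries. Of these, Cd28 was at 1012 ± 76 CPM in anti-CD3 and 444 ± 109.7 CPM in unstimulated libraries and Cd5 at 387 ± 31 CPM with anti-CD3 and 92.5 ± 21 CPM without, while Cd4 itself was lower, at 585 ± 43 CPM with anti-CD3 and 710.1 ± 54 CPM without (SD, n = 3 each). Cd8a and Cd8b1 together reached 14.7 to 15.2 CPM in anti-CD3 libraries and 19.6 to 26.2 CPM in unstimulated libraries. B and plasma cell markers summed to 208 to 293 CPM in anti-CD3 and 678 to 1149 CPM in unstimulated libraries, with 10 of 12 called lower, and macrophage and monocyte markers to 27.2 to 81.1 CPM against 132 to 374 CPM in unstimulated libraries, with 6 of the 7 tested called lower. The part of these other cells in the results below was not tested. Values are relative to the total of a library, so less of a transcript per cell and fewer cells that make it cannot be told apart, and neither can a change in the total RNA of a cell. Nothing in the labels says that the replicates came from separate mice, so p-values here reflect only the spread between these samples.

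Stimulation changed the level of most genes that were tested. Of 14572 genes, 9194 (63.1%) passed an adjusted p of 0.05 in edgeR's quasi-likelihood test with Benjamini-Hochberg adjustment, 4626 of them higher with anti-CD3 (31.7% of those tested) and 4568 lower (31.3%). A change of more than 1 on the log2 scale, that is by more than a factor of 2, was reached by 2247 genes that rose and 2149 that fell. A change of more than 3 on that scale was reached by 177 genes that rose and 132 that fell. Over all genes tested the median log2 change was -0.07. Of the called genes, 8523 had no overlap between the anti-CD3 and the unstimulated libraries, 4376 of them higher and 4147 lower. With so many genes called, the counts of gene groups given below have to be read against these shares.

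**Figure D1:**
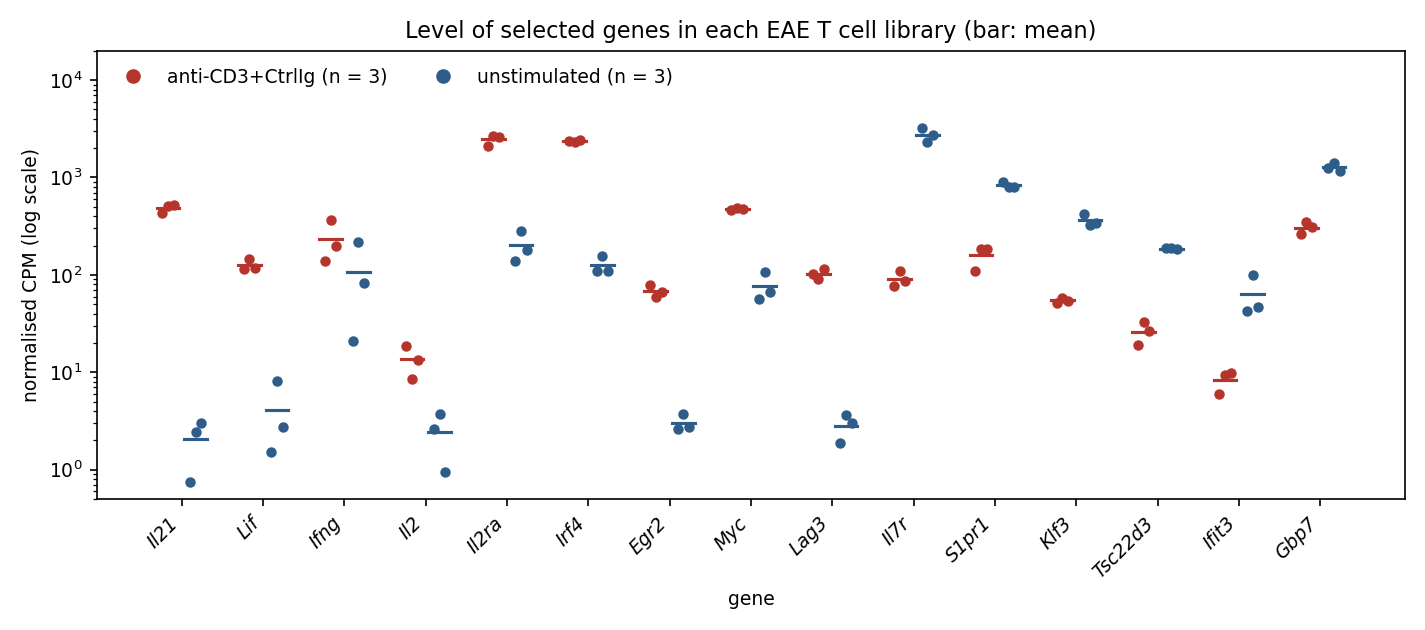
Normalised CPM on a log axis for 15 genes, with a point for each library and a bar for the mean of the 3 anti-CD3+CtrlIg (red) and the 3 unstimulated (blue) libraries. The groups do not overlap for any gene shown except Ifng, for which unstimulated replicate 2 (217 CPM) lies above anti-CD3 replicates 1 and 3 (138 and 199 CPM).

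Most cytokine genes rose. Of 20 tested, 15 rose and 2 fell, with a median log2 change of 1.90. Il21, which encodes a helper cytokine that acts on B cells and on the T cells that make it, had 431, 509 and 519 CPM (here and below scaled with the TMM method, unlike the marker levels) in anti-CD3 libraries, against 0.754, 2.46 and 3.02 CPM in unstimulated libraries. All 3 anti-CD3 libraries were far above all 3 unstimulated ones, and the log2 change of 7.67 ± 0.17 (SE, n = 3 each) was the largest of any gene that averaged 10 CPM or more (adjusted p = 1.4e-13, edgeR). Lif, a cytokine of the IL-6 family, had 115, 145 and 118 CPM with anti-CD3 and 1.51, 8.09 and 2.72 CPM in unstimulated cells, a log2 change of 5.06 ± 0.23. The highest unstimulated value for both Lif and Ifng was that of replicate 2, the library that also had the highest summed CPM of macrophage markers.

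The genes of the Th17 group were at very low levels in unstimulated cells and rose. Il17a had 8.57, 50.1 and 36.4 CPM in anti-CD3 libraries and 0, 1.17 and 0.492 CPM in unstimulated libraries, a log2 change of 5.79 ± 0.35. Il17f, its close relative, had 7.54, 27.7 and 24.9 CPM with anti-CD3 and 2.39, 1.52 and 0.918 CPM without, a log2 change of 3.82 ± 0.42. For both genes the anti-CD3 libraries spread over several fold, replicate 1 being the lowest, and none overlapped with the unstimulated ones. Il22 (log2 change 1.91 ± 0.32), a Th17 cytokine that acts on epithelia, and Csf2 (1.44 ± 0.29), which encodes GM-CSF, passed the test with groups that overlapped. Without the replicate block Il22 was no longer called, at 1.87.

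Among the Th2 cytokines, Il13 had 12.3, 20.8 and 25.1 CPM with anti-CD3 and 0.126, 1.29 and 0.164 CPM in unstimulated libraries (log2 change 5.67 ± 0.40). Il9 had 4.75, 24.1 and 13.6 CPM with anti-CD3 and 0, 0.234 and 0.0328 CPM without. Il4 had a log2 change of 1.88 ± 0.36, and Il5 did not pass the test. Il3, a growth factor for myeloid progenitors, was counted at 2.06, 6.73 and 5.96 CPM with anti-CD3 and at 0 in all 3 unstimulated libraries, which makes it at least 75-fold higher when set against 3 counts over that group. Il24 was at least 36-fold higher and the transcription factor gene Batf3 at least 17.2-fold higher by the same reckoning.

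Il2, the T cell growth factor, and Ifng, the Th1 cytokine, moved less than Il21. Il2 had 18.8, 8.61 and 13.3 CPM in anti-CD3 libraries and 2.64, 3.75 and 0.951 CPM in unstimulated libraries, a log2 change of 2.67 ± 0.32 (adjusted p = 2.7e-06, edgeR). Ifng had 138, 364 and 199 CPM with anti-CD3 and 21, 217 and 82 CPM in unstimulated libraries. Each anti-CD3 library was above the unstimulated one of its own number, but the groups overlapped, and the log2 change of 1.35 ± 0.29 (adjusted p = 0.00067, edgeR) was no longer called without the replicate block, at 1.14. Il16 (log2 change -0.73 ± 0.09) and Csf1 (-0.45 ± 0.17) were the 2 cytokines called lower, but Csf1 lost its call in 11 of 15 alternatives. Il6 and Il10 did not pass the test, Il10 with a log2 change of 0.71 ± 0.41.

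The start of the Il21 and Il2 transcripts is shown because both genes rose and because cytokine promoters are the classic site of NFAT binding. The windows run from 250 bases before to 50 bases after the annotated start, in RefSeq sequence of build GRCm38.p6, 5′ to 3′ on the strand of the gene (chr3:37232587-37232886, minus strand, and chr3:37125905-37126204, minus strand). Capitals mark the NFAT core GGAAA, read on either strand, of which Il21 holds 3 and Il2 holds 2.
Il21: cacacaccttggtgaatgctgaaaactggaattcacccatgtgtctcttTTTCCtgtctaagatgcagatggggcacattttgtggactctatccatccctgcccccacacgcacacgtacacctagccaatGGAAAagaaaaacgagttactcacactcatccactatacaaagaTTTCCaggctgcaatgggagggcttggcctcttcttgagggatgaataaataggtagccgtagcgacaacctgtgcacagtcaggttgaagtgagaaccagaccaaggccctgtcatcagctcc
Il2: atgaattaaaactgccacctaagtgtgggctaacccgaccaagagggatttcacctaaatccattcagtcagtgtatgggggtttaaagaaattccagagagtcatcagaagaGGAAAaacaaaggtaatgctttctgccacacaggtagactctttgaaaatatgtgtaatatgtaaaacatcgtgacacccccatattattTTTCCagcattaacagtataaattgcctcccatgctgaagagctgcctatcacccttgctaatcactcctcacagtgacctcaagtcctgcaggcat
The same 5 letters were found in the window of 90.0% of 20 cytokine promoters. They occurred in 59.8% of the 13195 promoter windows of 10442 tested genes with a RefSeq window. Among genes called with a log2 change of 2 or more, they were in 60.4% of the 541 windows of 426 genes. Among those called with a log2 change of -2 or less, they were in 64.1% of the 412 windows of 324 genes. In all, 613 genes (4.21% of those tested) were called that far up and 505 (3.47%) that far down. Those without a RefSeq window were not scanned. A match of letters is a description of the sequence and not evidence of binding. The AP-1 heptamer TGACTCA was in 4.6% of the windows of genes that rose that far, in 4.6% of those that fell that far and in 3.9% of all windows, and the E-box CACGTG, to which Myc binds, in 13.7%, 5.3% and 9.4%.

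The receptors that let a T cell hear these cytokines changed in both directions, 11 of 26 rising and 12 falling (median log2 change -0.23). Over all genes tested 31.7% rose and 31.3% fell. Il2ra, the high-affinity chain of the IL-2 receptor, had 2115, 2692 and 2596 CPM with anti-CD3 and 138, 286 and 179 CPM in unstimulated libraries, a log2 change of 3.66 ± 0.14. Il12rb2, the chain that confers IL-12 signaling on Th1 cells, rose with a log2 change of 2.86 ± 0.13. Il7r, the receptor for the survival cytokine IL-7, went the other way, with 77.5, 109 and 86.9 CPM in anti-CD3 libraries against 3188, 2301 and 2709 CPM in unstimulated libraries. Its log2 change of -4.92 ± 0.16 (adjusted p = 5.6e-12, edgeR) was the second largest fall among genes that averaged 10 CPM or more. The other receptors that fell included both chains of the interferon alpha/beta receptor (Ifnar1, Ifnar2).

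Of 34 transcription factor genes linked to T cell activation, 27 rose and 5 fell (median log2 change 1.72). Irf4, which scales with the strength of receptor signaling and works with Batf at AP-1 sites, had 2377, 2292 and 2412 CPM with anti-CD3 and 109, 158 and 110 CPM in unstimulated libraries. Every anti-CD3 library was far above every unstimulated one, and the log2 change was 4.24 ± 0.13. Egr2 (4.53 ± 0.15) and Egr3 (3.79 ± 0.17), zinc finger factors induced by NFAT, rose as well, as did the orphan receptors Nr4a1 (3.22 ± 0.13) and Nr4a3 (2.75 ± 0.10). Myc, which drives growth and metabolism in activated T cells, had 469, 484 and 474 CPM with anti-CD3 and 56.0, 107 and 67.4 CPM without, a log2 change of 2.65 ± 0.16. Hif1a, a regulator of glycolytic genes and of Th17 cells, had 2117, 2937 and 2727 CPM with anti-CD3 against 489, 839 and 699 CPM in unstimulated cells, a log2 change of 1.96 ± 0.08. Jun, Rel, Relb, Nfatc3 and Tox were the 5 called lower, Rel with a log2 change of -0.71 ± 0.09 and Jun with one of -0.29 ± 0.12 that lost its call in 12 of 15 alternative settings.

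The factors that define helper lineages did not move together. Tbx21, the Th1 factor T-bet, had 41.8, 43.4 and 43.0 CPM with anti-CD3 and 4.27, 5.16 and 5.64 CPM in unstimulated libraries, a log2 change of 3.03 ± 0.16. Gata3 of Th2 cells (1.05 ± 0.11) rose less, and Bcl6 of follicular helper cells fell with a log2 change of -2.47 ± 0.11. Foxp3, the factor of regulatory T cells, had 102, 172 and 165 CPM with anti-CD3 and 130, 173 and 165 CPM without, a log2 change of -0.11 ± 0.08 that did not pass the test (adjusted p = 0.25, edgeR). Of the 29 lineage and memory factors tested, 10 rose and 11 fell (median log2 change -0.03). That was close to all genes tested, of which 31.7% rose and 31.3% fell, with a median of -0.07.

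Receptors that restrain or help T cells at contact with other cells also split. Lag3, an inhibitory receptor for MHC class II, had 101, 90.2 and 115 CPM with anti-CD3 and 1.88, 3.63 and 3.02 CPM in unstimulated libraries, a log2 change of 5.16 ± 0.15. Btla, the inhibitory receptor that the study targeted, had 280, 232 and 253 CPM with anti-CD3 and 106, 121 and 115 CPM without, a log2 change of 1.15 ± 0.09 (adjusted p = 1.3e-08, edgeR). The groups did not overlap for Btla. Tnfrsf14, which encodes the Btla ligand Hvem, had 24.9, 22.3 and 26.5 CPM with anti-CD3 and 30.2, 36.0 and 31.9 CPM without, a log2 change of -0.40 ± 0.11 (adjusted p = 0.006, edgeR). That call was lost, at -0.02, when the mean length of the transcripts was taken into account. Ctla4 rose (0.91 ± 0.08), and Pdcd1, which encodes PD-1 (-1.15 ± 0.18), and Cd274, which encodes its ligand PD-L1 (-1.08 ± 0.08), fell. In all, 9 of 16 coinhibitory receptors and ligands rose and 5 fell, where 31.7% of all genes tested rose and 31.3% fell. Of 15 costimulatory receptors, 9 rose, among them Tnfrsf8 (CD30, 4.16 ± 0.23) and Tnfrsf4 (OX40, 2.80 ± 0.14), and 6 fell. Among 9 genes that the study named as lowered by anti-Btla in activated T cells, 5 were higher and 3 lower with anti-CD3 alone. That list was chosen by the study from libraries of this series.

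Genes for growth rose almost as whole groups. All 20 chaperones tested were higher (median log2 change 1.93), led by Hspd1, the mitochondrial chaperonin, with 1478, 1152 and 1258 CPM with anti-CD3 and 117, 146 and 109 CPM without. Of 46 ribosome biogenesis genes 45 were higher (median 1.89), among them Fbl, the methyltransferase fibrillarin (2.70 ± 0.11), and Rrp12 (3.22 ± 0.13). Of 80 cytosolic ribosomal protein genes 76 rose and 0 fell (median 1.06), and these genes took 5.52 to 5.86% of all counts in anti-CD3 libraries and 2.88 to 3.19% in unstimulated libraries. Of 37 genes for amino acid transport, tRNA charging and one-carbon metabolism, 32 were higher (median 1.60). They included Slc7a5, the transporter of large neutral amino acids (2.80 ± 0.12), while the cystine transporter gene Slc7a11 fell (-2.68 ± 0.13). Of 20 genes of purine and pyrimidine synthesis 19 rose (median 1.76), with Cad, the enzyme that starts pyrimidine synthesis, at 168, 116 and 127 CPM with anti-CD3 and 17.3, 15.2 and 17.6 CPM without.

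Of the energy pathways, glycolysis had the higher median. Of 22 genes of glycolysis and lactate handling 20 rose, 1 fell and the median log2 change was 2.40. Ldha, lactate dehydrogenase A, had 1564, 1627 and 1512 CPM with anti-CD3 and 158, 257 and 161 CPM in unstimulated libraries, a log2 change of 3.05 ± 0.13. Tpi1, triosephosphate isomerase, had 266, 294 and 259 CPM with anti-CD3 and 5.28, 29.3 and 5.54 CPM without, a log2 change of 4.58 ± 0.34. For both genes unstimulated replicate 2 was the highest of its group and still below every anti-CD3 library. The gene that fell was Pdk1 (-0.996 ± 0.095), a kinase that switches off pyruvate dehydrogenase. All 45 oxidative phosphorylation genes encoded in the nucleus were higher (median 1.39), for example Atp5b (1.88 ± 0.11), whereas 11 of the 13 protein genes of the mitochondrial genome were lower (median -1.25). These 13 genes took 1.27 to 2.81% of counts in anti-CD3 libraries and 5.28 to 7.00% in unstimulated libraries. Of 33 sterol and fatty acid synthesis genes 31 rose (median 1.49). Scd2, a fatty acid desaturase, rose by a log2 change of 3.44 ± 0.14, and its relative Scd1, at no more than 7.95 CPM in any anti-CD3 library, fell (-1.25 ± 0.27). Scd1 lost its call in 2 of 15 alternatives, without the replicate block and in lane 2 only.

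**Figure D2:**
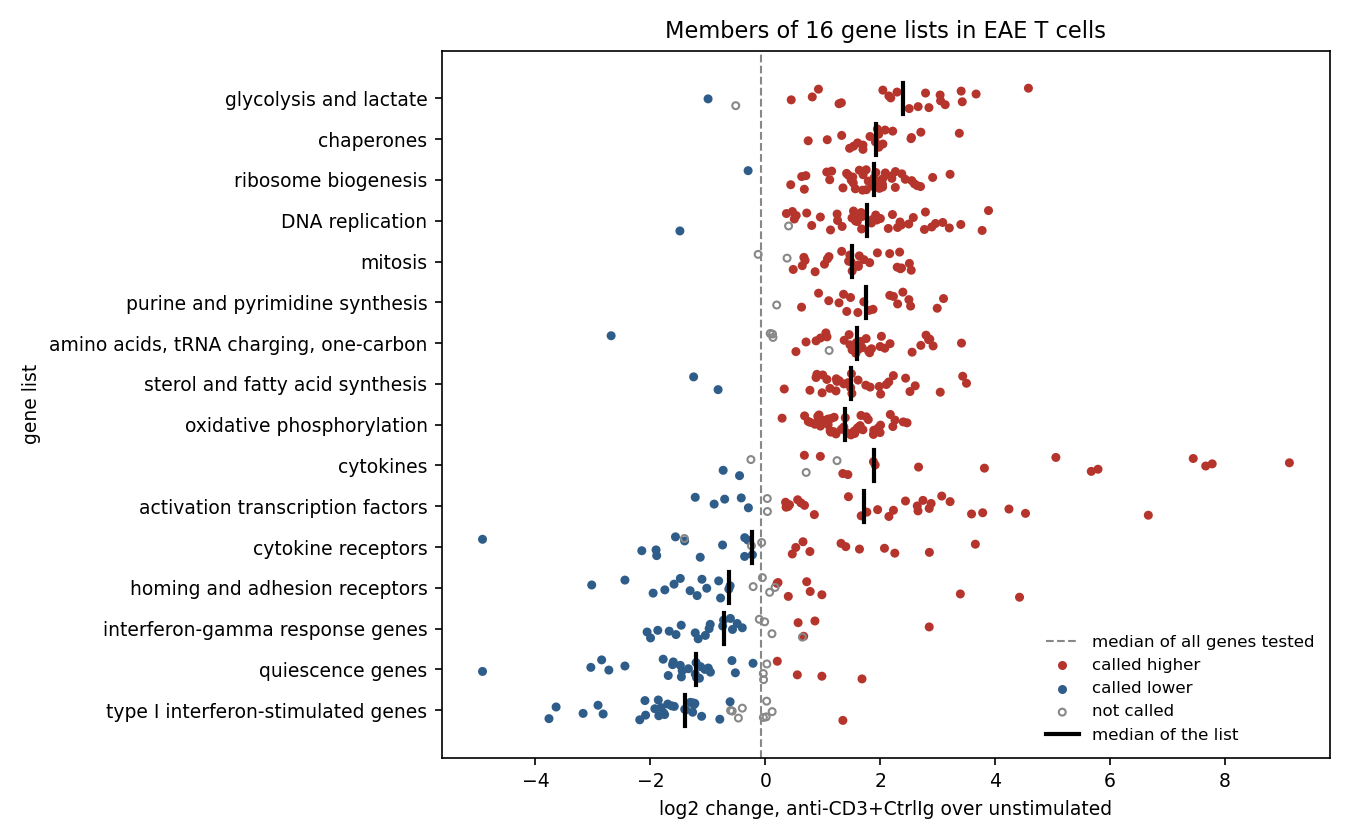
Log2 change, anti-CD3+CtrlIg over unstimulated, of every tested member of 16 gene lists, with a point for each gene (red called higher, blue called lower, open circles not called). A black bar marks the median of each list and the dashed line the median of all genes tested (-0.07); medians lie between 2.40 for glycolysis and -1.39 for type I interferon-stimulated genes.

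Of 42 DNA replication genes 40 rose and 1 fell (median log2 change 1.77). Mcm3, a subunit of the replicative helicase, had 221, 198 and 188 CPM with anti-CD3 and 23.5, 28.8 and 24.4 CPM in unstimulated libraries, a log2 change of 2.96 ± 0.12. The licensing factors Cdc6 (3.77 ± 0.19) and Mcm10 (3.40 ± 0.14) and the hemimethyl-DNA reader Uhrf1 (3.89 ± 0.16) rose further. Of 28 mitosis genes 26 rose and 0 fell (median 1.504). Cdk1, the kinase that drives entry into mitosis, had 10.7, 9.40 and 7.55 CPM with anti-CD3 and 1.26, 1.64 and 1.74 CPM without, so that the groups did not overlap but the level stayed low in both. Top2a (2.17 ± 0.12) and Mki67 (1.11 ± 0.10) rose too. Among the genes for cell cycle entry, Ccnd2, a D-type cyclin, rose (2.14 ± 0.15) and the inhibitor gene Cdkn1b fell (-1.69 ± 0.13).

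The promoters of Mcm3 and Cdk1 are shown because their groups carry letters that most promoters lack. The sequence is from RefSeq, build GRCm38.p6 (chr1:20820263-20820562, minus strand, and chr10:69352863-69353162, minus strand). Capitals mark, on either strand, the E2F words TTTCGCGC, TTTGGCGC or TTTCCCGC in Mcm3, and in Cdk1 the cell cycle homology region TTTGAA and the CCAAT box CCAAT, which appears on this strand as ATTGG.
Mcm3: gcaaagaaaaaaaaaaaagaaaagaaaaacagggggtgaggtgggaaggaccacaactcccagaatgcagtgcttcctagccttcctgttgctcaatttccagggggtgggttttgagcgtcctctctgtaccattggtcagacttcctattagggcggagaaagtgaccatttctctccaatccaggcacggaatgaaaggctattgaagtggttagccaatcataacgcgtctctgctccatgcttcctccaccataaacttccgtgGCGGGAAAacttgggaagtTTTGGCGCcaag
Cdk1: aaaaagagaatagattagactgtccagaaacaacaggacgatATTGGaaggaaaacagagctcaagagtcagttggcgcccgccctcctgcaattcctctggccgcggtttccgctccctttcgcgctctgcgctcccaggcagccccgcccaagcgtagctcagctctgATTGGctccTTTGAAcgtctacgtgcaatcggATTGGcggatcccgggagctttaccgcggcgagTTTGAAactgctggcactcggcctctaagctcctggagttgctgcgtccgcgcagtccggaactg
Only the words named for each gene are marked, and the Mcm3 window also holds CCAAT and the Cdk1 window the E2F word TTTCGCGC. An E2F word was in the window of 35.0% of 40 replication promoters, against 3.2% of all windows. It was in 4.2% of the mitosis promoters. The replication promoters held CCAAT in 57.5% and TTTGAA in 12.5%. The letters TTTGAA were in 75.0% and CCAAT in 83.3% of 24 mitosis promoters, against 13.1% and 38.0% of all windows.

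Genes of quiescence and of recirculation fell. Of 31 quiescence genes 24 were lower and 4 higher (median log2 change -1.20). Pik3ip1, an inhibitor of PI3 kinase, had 24.3, 22.1 and 23.5 CPM with anti-CD3 and 205.4, 176 and 192 CPM in unstimulated libraries, a log2 change of -3.04 ± 0.12. Klf3 (-2.72 ± 0.12), Tsc22d3, the glucocorticoid-induced leucine zipper (-2.85 ± 0.13), and Tcf7, a factor of naive and stem-like T cells (-1.20 ± 0.09), fell as well. S1pr1, the receptor by which T cells leave lymph nodes, had 109, 184 and 183 CPM with anti-CD3 and 896, 801 and 805 CPM without, a log2 change of -2.44 ± 0.15. Klf2, the factor that maintains S1pr1, fell as well (-1.45 ± 0.13). Itga4, the α4 chain of the integrin by which T cells enter the inflamed brain, had 107, 116 and 138 CPM with anti-CD3 and 1230, 726 and 981 CPM in unstimulated libraries, a log2 change of -3.02 ± 0.14. The chemokine receptor genes Ccr4 (4.43 ± 0.10), with 425, 420 and 561 CPM against 18.2, 23.6 and 23.5 CPM in unstimulated libraries, and Ccr8 (3.40 ± 0.20) rose. Of 26 homing and adhesion receptors, 8 rose and 14 fell (median -0.62), where 31.7% of all genes tested rose and 31.3% fell.

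Interferon-stimulated genes were lower after stimulation. Of 36 genes induced by type I interferon 27 fell and 1 rose (median log2 change -1.39), and of 25 interferon gamma response genes 17 fell and 4 rose (median -0.73). Ifit3, part of an antiviral complex that binds RNA, had 5.99, 9.31 and 9.74 CPM with anti-CD3 and 43.0, 99.6 and 46.6 CPM in unstimulated libraries, a log2 change of -2.82 ± 0.38. Oasl2 (-3.64 ± 0.18), Ifi203 (-3.76 ± 0.19) and Ifit1bl1 (-4.86 ± 0.29) were among the 12 largest falls of genes that averaged 10 CPM or more and agreed in all 3 same-numbered pairs, as was Ifi213 (-4.30 ± 0.26), a neighbour of Ifi203 in a family of similar genes that can share reads. Gbp7, a guanylate-binding protein, had 264, 346 and 307 CPM with anti-CD3 and 1250, 1406 and 1154 CPM without. Bst2 (1.35 ± 0.21), which tethers budding virus, and Irf8 (2.85 ± 0.09) were among the members that rose. B cell and macrophage markers were lower as well, as given above, and NK cell markers, without TMM scaling, summed to 17.4 to 24.1 CPM with anti-CD3 and 48.9 to 66.5 CPM without; their part in the fall of these genes was not tested.

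The Ifit3 promoter is shown as an example of the element that interferon-activated factors bind. The sequence is from RefSeq, build GRCm38.p6 (chr19:34583279-34583578, plus strand), and capitals mark the interferon-stimulated response element GAAANNGAA on either strand, here 3 times as its reverse complement.
Ifit3: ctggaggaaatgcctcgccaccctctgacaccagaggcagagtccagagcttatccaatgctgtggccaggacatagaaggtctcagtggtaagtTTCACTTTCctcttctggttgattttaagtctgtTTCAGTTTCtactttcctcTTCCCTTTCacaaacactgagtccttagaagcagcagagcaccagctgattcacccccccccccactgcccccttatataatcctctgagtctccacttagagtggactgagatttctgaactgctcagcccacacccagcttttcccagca
The element was in 56.2% of 32 windows of 25 type I interferon-stimulated genes and in 7.7% of all windows. It was in 6.6% of the windows of genes with a log2 change of 2 or more and in 15.3% of those of genes with one of -2 or less.

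The largest changes outside these groups were mixed. Egln3, an oxygen-sensing prolyl hydroxylase, had 199, 277 and 221 CPM with anti-CD3 and 7.79, 16.6 and 8.43 CPM without. Ak4 (log2 change 5.08 ± 0.29), a mitochondrial adenylate kinase, Bcat1 (4.45 ± 0.21), a branched-chain amino acid transaminase, and Hivep3 (4.73 ± 0.17), a zinc finger gene that shares exon sequence with another gene on its strand, rose with no overlap between the groups. Among the falls, Rapgef4, an exchange factor activated by cAMP, had 5.16, 4.75 and 3.78 CPM with anti-CD3 and 154, 102 and 125 CPM in unstimulated libraries. Gm28661, an unprocessed pseudogene on chromosome 1 (24614885 to 24615565, GRCm38), had 0, 44.5 and 41.9 CPM with anti-CD3 and 2486, 2588 and 6269 CPM without (log2 change -6.86 ± 0.87). Its values spread widely within both groups. Pseudogenes can share reads with genes of similar sequence. The mitochondrial genome took 1.27, 2.81 and 2.11% of counts with anti-CD3 and 5.30, 5.28 and 7.00% without. Both it and Gm28661 were lowest in anti-CD3 replicate 1 and highest in unstimulated replicate 3. Whether mitochondrial reads entered the counts of Gm28661 was not tested.

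The lane could be held constant only by replacing the anti-CD3 libraries. In lane 2, the 4 stimulated EAE T cell libraries, all of which also received IFNb and 3 of which received anti-Btla in place of CtrlIg, were set against unstimulated replicates 1 and 2, a choice made after seeing the data. There, 37 of 42 replication genes, 45 of 46 ribosome biogenesis genes and 18 of 22 glycolysis genes were higher, and 23 of 31 quiescence genes lower. Of the 36 type I interferon-stimulated genes 22 were lower (median log2 change -0.88), although these libraries had received IFNb. Of 19 cytokines tested 10 were higher (median 1.09). Ifng (log2 change 0.32), Csf2 (0.63), Il4 (0.97) and Il22 (1.49) were among those not called, and Gm28661 turned round, at 0.06.

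Transcripts of one gene did not always move together. In edgeR's test of transcript usage, 1844 of 9113 genes passed an adjusted p of 0.05 (20.2%). Leaving out each library in turn gave 1188 to 1540 genes, the lowest without anti-CD3 replicate 3. With all libraries, in 666 (7.31%) the share of the leading transcript also changed by at least 20 percentage points with no overlap between the groups. That leading transcript was a protein-coding one that gained share in 423 genes and lost it in 97, and a transcript annotated with a retained intron that gained share in 9 genes and lost it in 76. A retained-intron transcript keeps an intron that is normally removed and as a rule gives no full protein. Over all protein-coding genes, such transcripts held 9.01, 7.69 and 7.72% of counts in anti-CD3 libraries and 11.33, 10.86 and 11.54% in unstimulated libraries. The 9 other stimulated EAE T cell libraries lay between 7.06 and 9.07%, and the 4 of them in lane 2 between 7.70 and 9.07%, all below the unstimulated libraries. The shares are Salmon's estimates, and intron reads from DNA or from unspliced RNA would enter them.

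Of 5423 genes with a retained-intron transcript, its share was lower in all 3 anti-CD3 libraries than in any unstimulated one in 2408 (44.4%) and higher in 155 (2.86%). The median share over these genes was 10.2% with anti-CD3 and 15.4% without. Lower shares were more frequent among genes whose level rose, and outnumbered higher ones whichever way the level went. Among 2323 such genes whose level rose, 1303 had a lower and 59 a higher retained share, among 1315 genes whose level did not pass the test, 582 had a lower and 19 a higher one, and among 1785 genes whose level fell, 523 had a lower and 77 a higher one.

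Srsf2, a serine and arginine rich splicing factor, had its retained-intron transcript Srsf2-203 at 6.42, 6.66 and 8.04% with anti-CD3 and at 27.1, 26.97 and 32.9% in unstimulated libraries. The groups did not overlap, and the coding transcript Srsf2-201 held 77.6% ± 1.4 with anti-CD3 and 61.6% ± 4.2 without (SD, n = 3 each). The retained-intron transcript Hnrnpl-206 fell to 38.8% ± 0.58 with anti-CD3, against 65.7% ± 1.8 without. Hnrnpl is known to control exons of the phosphatase gene Ptprc (CD45), but a link between the 2 genes was not tested here. Ptprc-207 held 14.1% ± 1.1 with anti-CD3 and 7.72% ± 1.2 without. The largest Ptprc transcript, Ptprc-203, held 46.3% ± 4.7 with anti-CD3 and 45.1% ± 3.3 without, with overlap between the groups. Not every change involved a retained intron. Satb1, a chromatin organizer of T cells, had Satb1-208 at 6.46% ± 0.74 with anti-CD3 and 30.5% ± 4.1 without, and Satb1-204 at 38.9% ± 4.3 against 15.9% ± 3.4 in unstimulated libraries, both of them protein-coding. Fxyd5-208 held 50.4% ± 0.20 with anti-CD3 and 8.16% ± 0.77 without. Nfatc1-206 had 64.7, 54.7 and 43.1% of the Nfatc1 counts with anti-CD3 and 9.44, 0 and 6.63% without, but the gene did not pass the test of usage (adjusted p = 0.095, edgeR). Foxp3 passed it with shares that overlapped between the groups, and Ctla4, Tcf7 and Myb did not pass it.

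Cdc45, a helicase cofactor, was the replication gene called lower (log2 change -1.49 ± 0.18), with 31.1, 40 and 33.3 CPM with anti-CD3 and 86.1, 116 and 91.4 CPM in unstimulated libraries. It was looked up after its value was seen. In unstimulated libraries 97.8, 97.7 and 97.0% of its counts lay on the retained-intron transcript Cdc45-204, against 37.7, 40.3 and 36.9% with anti-CD3. The coding transcript Cdc45-201 held 43.1, 59.7 and 63.1% with anti-CD3 and 1.99, 2.34 and 2.68% without. Wdr12, the ribosome biogenesis gene called lower (-0.30 ± 0.10), turned round to 0.49 with transcript length offsets and lost its call in 9 of the 15 alternatives. It had its transcript Wdr12-203 at 49.95% ± 1.6 with anti-CD3 and 17.8% ± 4.4 without. In Pkm, pyruvate kinase, the retained-intron transcript Pkm-205 held 7.39% ± 0.57 with anti-CD3 and 25.3% ± 5.6 without, and the coding Pkm-201 89.9% ± 0.53 and 67.4% ± 5.3.

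**Figure D3:**
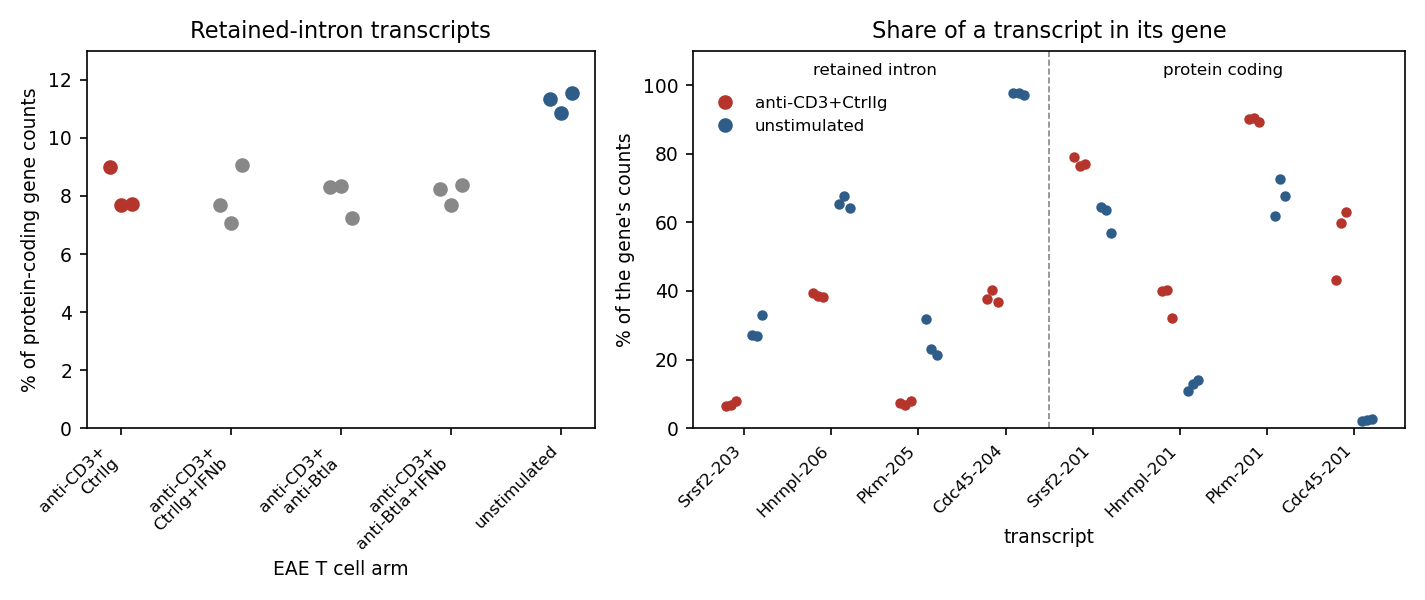
Left, the percentage of the counts of protein-coding genes that lay on retained-intron transcripts in each of the 15 EAE T cell libraries, by arm. Right, the share of 4 retained-intron and 4 protein-coding transcripts in their genes' counts, by library, in anti-CD3+CtrlIg (red) and unstimulated (blue) cells; all 3 unstimulated libraries lie above 10.8% on the left, and every stimulated one below 9.1%.

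The response of EAE T cells was set against that of naive T cells in a joint fit of 30 T cell libraries, in which the difference of the 2 effects was tested. Cd8a, the defining gene of CD8+ T cells, was, without TMM scaling, at 0.917 to 2.95 CPM with anti-CD3 and 3.21 to 6.16 CPM unstimulated in EAE T cells, but at 228 to 299 CPM with anti-CD3 and 281 to 344 CPM unstimulated in naive T cells. The naive libraries are labelled CD4+ T cells as well, and the part of CD8+ cells in the differences was not tested. The effect differed for 6037 of 15982 genes (37.8%), more positive in EAE T cells for 3323 (20.8%) and more negative for 2714 (17%). Stimulated and unstimulated libraries of the same number shared lanes in naive T cells but not in EAE T cells. Lane and stimulation in EAE T cells therefore cannot be told apart in this difference either. Metabolic and cell cycle groups were more positive in EAE T cells, with 39 of 42 replication genes (median log2 change 1.81 in EAE and 0.20 in naive T cells), 19 of 22 glycolysis genes (2.45 and 0.39), 39 of 45 oxidative phosphorylation genes (1.44 and 0.57) and 28 of 33 sterol and fatty acid genes (1.55 and 0.38). Ribosome biogenesis (1.93 and 1.36) and amino acid genes (1.64 and 1.79) rose in both, and for the amino acid list the difference was positive in 7 and negative in 17 of 37. Pfkl, the liver-type phosphofructokinase, had 100, 106 and 102 CPM with anti-CD3 and 20.1, 24.9 and 20.9 CPM unstimulated in EAE T cells, and 19.3, 16 and 17.4 CPM with anti-CD3 and 24.7, 26.3 and 24.1 CPM unstimulated in naive T cells. The difference of the log2 changes was 2.75 ± 0.12 (adjusted p = 1.7e-14, edgeR). Scd2 (3.84 ± 0.20), the DNA ligase gene Lig1 (2.73 ± 0.14), the maintenance methyltransferase gene Dnmt1 (1.80 ± 0.09) and Fkbp1a (1.95 ± 0.09), which encodes the FK506-binding protein, also differed in that direction.

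Interferon genes differed the other way. Of 36 type I interferon-stimulated genes 34 had a more negative effect in EAE T cells and 0 a more positive one, with a median log2 change of -1.35 in EAE and 0.95 in naive T cells, and of 25 interferon gamma response genes 20 were more negative (-0.68 and 1.36). Unstimulated levels, without TMM scaling, were far apart for Ifit1 (104 CPM in EAE, 17.3 CPM in naive T cells) and close for Ifit2 (141 and 131 CPM). The part of such starting levels in the differences was not tested. Cd274 had 231, 299 and 265 CPM with anti-CD3 and 497, 608 and 527 CPM unstimulated in EAE T cells, and 350, 344 and 435 CPM with anti-CD3 and 48.5, 36.2 and 53.4 CPM unstimulated in naive T cells. The effects had opposite signs, and their difference was -4.08 ± 0.10 (adjusted p = 2.8e-19, edgeR). For Cd274 the unstimulated EAE T cells were the highest of the 4 groups and the unstimulated naive T cells the lowest. Parp14 (-2.55 ± 0.10) and the pseudogenes Gm1966 (-3.29 ± 0.08), Gm4759 (-3.08 ± 0.10) and Gm8995 (-3.04 ± 0.10), which lie together on chromosome 7 between 106417848 and 106604035 (GRCm38) and can share reads, had the other differences with the smallest p.

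Cytokine and activation genes did not follow one direction. The effect on Il21 was larger in EAE T cells, at 449, 534 and 546 CPM with anti-CD3 in EAE T cells and 4.39, 6.15 and 3.20 CPM in naive T cells. Unstimulated cells had 2.11 ± 1.19 CPM in EAE and 0.799 ± 0.461 CPM in naive T cells (SD, n = 3 each), and the difference was 5.01 ± 0.62. Il17a (4.52 ± 1.01) went the same way. The effect on Ifng was smaller in EAE T cells (-3.65 ± 0.57), where the unstimulated mean was 108 ± 102 CPM, against 1.23 ± 0.34 CPM in naive T cells. The effect on Il2 was also smaller in EAE T cells (-2.60 ± 0.54), with unstimulated means of 2.48 ± 1.43 CPM in EAE and 0.556 ± 0.567 CPM in naive T cells. The effect on Nr4a1 was smaller too (-3.36 ± 0.19), and over the activation transcription factors 24 of 34 differences were negative and 5 positive (median log2 change 1.76 in EAE and 2.54 in naive T cells). For Btla the difference of 0.28 ± 0.11 did not pass (adjusted p = 0.051, edgeR), nor did that of 0.89 ± 0.36 for Lag3 (adjusted p = 0.052).

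**Figure D4:**
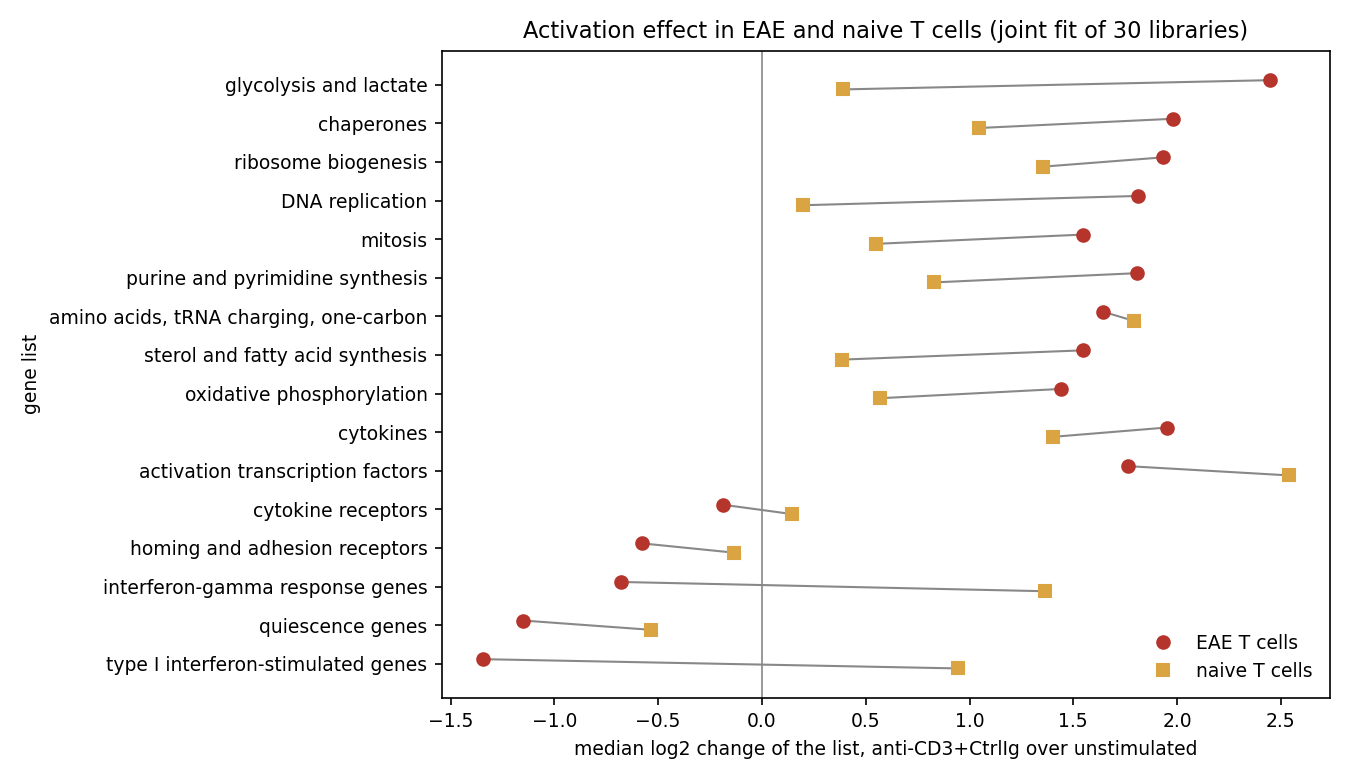
Median log2 change, anti-CD3+CtrlIg over unstimulated, of 16 gene lists in EAE T cells (red circles) and naive T cells (yellow squares), joined by a line for each list. The 2 interferon lists lie below 0 in EAE and above 0 in naive T cells, and glycolysis and DNA replication lie furthest to the right of their naive values.

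Antigen receptor stimulation of EAE B cells, with anti-IgM/G, gave smaller changes in most of the growth groups. The lane limit given above for the EAE T cell libraries applies to this comparison as well. The effect differed between EAE T and EAE B cells for 6257 of 16523 genes (37.9%), more positive in T cells for 3250 (19.7%) and more negative for 3007 (18.2%). It was more positive in T cells for 42 of 46 ribosome biogenesis genes (median log2 change 1.92 in T and 0.56 in B cells), 38 of 42 replication genes (1.80 and 0.71), 32 of 37 amino acid genes (1.63 and 0.41) and 18 of 22 glycolysis genes (2.43 and 0.89). Of the type I interferon-stimulated genes 26 of 36 were more negative in T cells (-1.35 and -0.03). Irf4 had 2378, 2387 and 2511 CPM with anti-CD3 and 108, 159 and 111 CPM unstimulated in EAE T cells, and 498, 582 and 539 CPM with anti-IgM/G and 464, 454 and 454 CPM unstimulated in EAE B cells, a difference of 4.04 ± 0.15. The change of Irf4 within B cells did not pass (0.24 ± 0.10, adjusted p = 0.069, edgeR). Slc7a1 (2.07 ± 0.09), a transporter of basic amino acids, Kcnq5 (2.78 ± 0.13), a potassium channel, Pla2g12a (3.59 ± 0.18), a secreted phospholipase, and the sterol enzyme gene Cyp51 (2.42 ± 0.12) differed in the same direction. Il7r (-5.55 ± 0.19), Dtx4 (-4.30 ± 0.18), Usp28 (-2.44 ± 0.11), Gm1966 (-2.83 ± 0.12) and Gm8995 (-2.49 ± 0.10) differed the other way, and Il7r was below 36 CPM in every B cell library of the comparison. Btla fell in B cells, with means of 328 ± 11 CPM with anti-IgM/G and 514 ± 85 CPM unstimulated, so that the difference from T cells was 1.83 ± 0.14.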

How the data were processed

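RNA from 60 libraries of purified mouse lymphocytes was sequenced, and the authors deposited Salmon output, 1 table per run, with estimated counts per transcript (build GRCm38 per the labels, Salmon and DESeq2 without a version). The deposited tables also hold TPM, a per-length value scaled within each library, which entered no test. The deposited effective lengths of transcripts (other values, in bases) served only 1 alternative. Estimated counts were summed to genes with GENCODE M21 by transcript ID, summed over both runs of unstimulated replicate 3 (chi-square per degree of freedom 1.612 between the runs, 5.593 to 17.69 between replicates) and rounded. Transcripts outside the annotation (922 of 116945) held 0.4381 to 0.6841% of the counts of the 6 libraries and were left out. Strand use in counting is not given in the sources used here, so genes that overlap on opposite strands cannot be told apart.

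edgeR 4.0.16 in R 4.3.3 gave quasi-likelihood tests with TMM scaling, a minimum count of 10 (filterByExpr) and the replicate number as a block, on all 15 EAE T cell libraries, or on 30 libraries for differences between sets. Transcript usage was tested with edgeR's diffSpliceDGE. Calls needed an adjusted p below 0.05, and SE was the size of the log2 change over the root of F. The ± values reflect the spread between libraries, whereas the floors of 3 counts cover counting error only. Named genes were the 12 largest rises and 12 largest falls at a mean of 10 CPM or more with 3 of 3 same-numbered pairs agreeing in direction, up to 4 members of each list with the smallest p, all cytokines, activation factors and study genes, Btla, Tnfrsf14 and Hif1a, and for each difference 5 genes in each direction. For transcripts they were the 8 genes with the smallest p and a share change of at least 20 points, and a fixed set with Nfatc1, Ptprc, Pkm and Foxp3. Other genes named (Cdc45, Wdr12, Klf2, Mcm3, Cdk1, Ifit3, Top2a, Mki67, Scd1, Slc7a11, Pdcd1 and further members of the lists) were picked after their values were seen. The members and the 40 lists, 9 of them markers of cell types, were chosen with earlier results of these data known. Some list members and results are not reported here. The steps were tested on simulated data with 200 changed genes. Alternatives were DESeq2 1.42.0, other scaling, no filter, no block, fewer libraries, length offsets and leaving out each library.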

Additional observations from a re-analysis of the deposited data

Results flagged for a closer look

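The activation effect (anti-CD3+CtrlIg over unstimulated in T cells, anti-IgM/G+CtrlIg over unstimulated in B cells) was tested for a difference between sets of libraries, and these results are listed because that test passed. Between EAE T and naive T cells it differed for 3323 genes in the positive and 2714 in the negative direction. By the smallest p these were led by Pfkl (2.75 on the log2 scale), Fkbp1a (1.95), Lig1 (2.73), Dnmt1 (1.80) and Scd2 (3.84), and on the negative side by Cd274 (-4.08), Gm1966 (-3.29), Gm4759 (-3.08), Gm8995 (-3.04) and Parp14 (-2.55). The naive T cell libraries also held Cd8b1, without TMM scaling, at 369 to 453 CPM with anti-CD3 and 644 to 752 CPM unstimulated, and its part in these differences was not tested. The lane limit of the EAE T cell libraries holds for these differences and for those from EAE B cells.

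Between EAE T and EAE B cells the effect differed for 3250 genes in the positive and 3007 in the negative direction. Irf4 (4.04), Slc7a1 (2.07), Kcnq5 (2.78), Pla2g12a (3.59) and Cyp51 (2.42) led the positive side, and Il7r (-5.55), Gm8995 (-2.49), Dtx4 (-4.30), Gm1966 (-2.83) and Usp28 (-2.44) the negative side. The stimuli and receptors differ between the cell types, so cell type and stimulus cannot be told apart. The pseudogenes Gm1966 and Gm8995 had 234.6, 186 and 193 CPM and 768, 769 and 783 CPM with anti-CD3 in EAE T cells, against 1893, 1726 and 1847 CPM and 4816, 4674 and 4848 CPM in unstimulated EAE T cells, and were the only genes named on both negative sides.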

How the results depend on the processing

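The comparison as reported called 4626 genes higher and 4568 lower with anti-CD3. Other settings gave 4663 and 4091 (DESeq2, which tested 17342 genes), 4695 and 4486 (DESeq2's size factors), 4437 and 4844 (library size only), 4757 and 4315 (no filter on low counts), 4371 and 4087 (only the 6 libraries), 3917 and 3969 (transcript length offsets) and 3738 and 3146 (lane 2 only). Leaving out each library in turn gave 4400 to 4881 higher and 3458 to 4276 lower. The labels do not say that the replicate numbers pair the libraries, and not every pair correlated. Same-numbered EAE T cell libraries deviated together in 27 of 30 pairs (correlation above 0.1), with a median of 0.184, but for the arms compared here the correlation was 0.0595 to 0.215. The median for other pairs was -0.0992. The correlations of a library with the replicates of another arm nearly cancel, so that value is no separate evidence of pairing. Without the replicate block 4458 genes were higher and 4308 lower; for the differences, 3028 and 2362 (naive T cells) and 2627 and 2191 (B cells), and for transcript usage 1975. Leave-one-out ranges were 3059 to 3443 and 2239 to 2605 against naive T cells, and 2962 to 3858 and 2035 to 3081 against B cells. For transcript usage they were 1188 to 1540 against 1844 with all libraries, the lowest without anti-CD3 replicate 3; the cause was not tested. Of 1917 alternative values of 128 named genes, 1840 kept their side of the threshold, with the same direction wherever they were called. All 320 of the 20 named differences kept both, and 1129 of 1200 list counts stayed within 1.5 times. Gm28661 reversed, to 0.06102, in lane 2 only, and Wdr12, to 0.4868, with transcript length offsets. Among the genes named, Jun and Csf1 lost their calls most often, in 12 and 11 of 15 settings. Genes below about 10 CPM rest on few counts. Among them, the calls of Il5 and Il10 changed in 3 settings each, and the part of depth was not tested.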

Other observations

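Genes of survival and of signal control moved in both directions. Bcl2, which blocks cell death, had 356, 429 and 403 CPM with anti-CD3 and 134, 150 and 90.8 CPM in unstimulated libraries, a log2 change of 1.68 ± 0.12, and Bcl2l1, which encodes Bcl-xL, rose by a log2 change of 1.42 ± 0.23. Mcl1 (-0.37 ± 0.08), the short-lived survival factor, and the death genes Bcl2l11 (-0.37 ± 0.09) and Bbc3 (-1.996 ± 0.31) fell, Bbc3 being at no more than 6.03 CPM in any library. In all, 7 of 15 Bcl2 family genes tested rose and 4 fell (median log2 change 0.49). Of 32 feedback inhibitors of signaling 17 rose and 10 fell (median 0.45). Over all genes tested 31.7% rose and 31.3% fell, so the falls in both lists were near that share. Cish, an inhibitor of cytokine and T cell receptor signaling, had 249, 343 and 338 CPM with anti-CD3 and 39.2, 102 and 69.9 CPM without. The Bcl2l1-201 transcript held 82.2% of the gene's counts with anti-CD3 and 39.6% without.

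Of 11 chemokine genes 1 rose and 3 fell. The counts in this paragraph are to be read against 31.7% higher and 31.3% lower over all genes tested. Ccl3, which attracts monocytes and T cells, had 54.9, 108 and 89.9 CPM with anti-CD3 and 161, 402 and 196 CPM in unstimulated libraries. Of the unstimulated libraries, replicate 2, which had the highest summed CPM of macrophage markers, was the highest. Of 9 cytotoxic granule genes tested 4 rose and 2 fell. Gzmb, granzyme B, had 279, 304 and 296 CPM with anti-CD3 and 10.3, 21.4 and 17.3 CPM without, a log2 change of 4.14 ± 0.16, while Prf1, perforin, fell slightly (-0.44 ± 0.14) and lost its call in 5 of 15 alternatives. Of 13 polycomb and DNA methylation genes 8 rose and 3 fell, with Ezh2, the H3K27 methyltransferase, at 144, 144 and 149 CPM with anti-CD3 and 34.8, 33.1 and 36.6 CPM without.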
